A study of Mus musculus with 6 samples.

Results

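The Hox genes encode homeodomain transcription factors that lie in 4 clusters, HoxA, HoxB, HoxC and HoxD. All 39 were taken by symbol, as Hox followed by the cluster letter and a paralogue number, out of 29072 genes with an identifier. The HoxA cluster contributed 11 genes, HoxB 10, HoxC 9 and HoxD 9. RNA was measured by sequencing in interscapular brown adipose tissue, the thermogenic fat depot between the shoulder blades. The knockout group was UCP1(-/-) and the comparison group was wildtype, with 3 libraries each and the strain C57BL/6J in both. The labels state neither age, sex and housing nor whether each library is from its own animal. A p-value below therefore refers to library-to-library spread, and this spread may be technical only.

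Hox genes give cells a position along the body axis. Within a cluster the genes stand in the order in which they are used from head to tail, so that low paralogue numbers mark anterior and high numbers posterior levels. Fat cells and their precursors keep such a code in the adult, and depots from different places differ in which Hox genes they transcribe. Hox proteins bind DNA together with the TALE homeodomain proteins of the Pbx, Meis and Pknox families. Their clusters are held silent by Polycomb proteins and kept active by Trithorax proteins. The clusters also carry genes of the miR-196 and miR-10 families, microRNAs that pair with Hox messages.

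The sequences below belong to microRNAs of the Hox clusters and to some of the Hox genes described further on. The microRNAs come first, from RefSeq on GRCm38.p6, with the seed, bases 2 to 8, in capitals. The miR-196 genes lie at chr11:96265187-96265208 and chr15:102973365-102973386 on the plus strand for miR-196a, and at chr6:52230129-52230150 on the minus strand for miR-196b. The miR-10 genes lie on the plus strand at chr11:96317186-96317208 for miR-10a and chr2:74726074-74726096 for miR-10b. These positions are those of the mature arms. Both miR-196 sequences share one seed, and both miR-10 sequences share another. The levels of these microRNAs were not analysed here.
miR-196a-5p: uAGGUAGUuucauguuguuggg
miR-196b-5p: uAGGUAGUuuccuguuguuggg
miR-10a-5p: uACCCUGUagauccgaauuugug
miR-10b-5p: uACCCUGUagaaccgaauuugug

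Hoxc8, the Hox gene with the largest tested change, carries the complement of the miR-196 seed, ACTACCT, at 2 places in its 3′ untranslated region (UTR). They lie at chr15:102992976-102992997 and chr15:102993733-102993754 on the plus strand, from the GENCODE transcripts on GRCm38, and the match is in capitals. Of 2672 UTRs within 20% of its length, 3.56% held such a match. Over 20693 UTRs the share was 6.22%, and among 38 Hox UTRs it was 23.7%, or 9 genes, among them Hoxa4, Hoxa5, Hoxa7, Hoxa9, Hoxb1, Hoxb6, Hoxb7 and Hoxc8. The miR-10 match ACAGGGT stood in 4 of the 38 Hox UTRs, or 10.5%, against 12.7% of all UTRs. A match describes the letters and does not show that the microRNA acts there.
Hoxc8 first match: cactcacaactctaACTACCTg
Hoxc8 second match: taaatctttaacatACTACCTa

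Promoters, 250 bases before to 50 after the gene start, were held by the RefSeq table on GRCm38.p6 for 22 of the 39 Hox genes. The promoter of Hoxc8 was not among them. Those of Hoxd8, Hoxd4 and Hoxb8 are shown: Hoxd8 because it passed the test described below, Hoxd4 as a tested HoxD gene and Hoxb8 as a further member of paralogue 8 with an entry in the table. In the rows used all 3 genes were higher in every knockout library, in all 5 rows of Hoxd8 but in only 2 of 5 rows each of Hoxd4 and Hoxb8. So were 24.3% of all genes tested and 21.2% of all genes between 0.1 and 1 RPKM. The 3 genes were picked from those with a promoter, so this count is not a result. The promoters shown lie on the plus strand at chr2:74704365-74704664 for Hoxd8, chr2:74721728-74722027 for Hoxd4 and chr11:96281655-96281954 for Hoxb8. Capitals mark matches, on either strand, to the motif TGATNNAT for paired Hox and Pbx binding, to TATAAA, the TATA box, and to TTTATG, a core bound by caudal and posterior Hox proteins. No match shown overlaps another. The Hoxd8 promoter held none of them, Hoxd4 held TATAAA 1 time and TTTATG 2 times, and Hoxb8 held TGATNNAT 1 time and the other 2 motifs 2 times each. Among all 32851 promoters, 8.85% held TGATNNAT, 13.6% TATAAA and 11.9% TTTATG. Among the 24 Hox promoters, which include second starts, the shares were 16.7%, 16.7% and 20.8%. CpG pairs numbered 6 in the Hoxd8 promoter, 4 in Hoxd4 and 13 in Hoxb8, against a median of 7 over all promoters.
Hoxd8 promoter: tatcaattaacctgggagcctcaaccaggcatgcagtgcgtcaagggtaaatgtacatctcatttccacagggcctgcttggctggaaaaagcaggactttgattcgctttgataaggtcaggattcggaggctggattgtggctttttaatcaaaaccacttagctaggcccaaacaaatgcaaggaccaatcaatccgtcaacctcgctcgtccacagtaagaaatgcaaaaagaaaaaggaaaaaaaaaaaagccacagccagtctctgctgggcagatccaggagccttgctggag
Hoxd4 promoter: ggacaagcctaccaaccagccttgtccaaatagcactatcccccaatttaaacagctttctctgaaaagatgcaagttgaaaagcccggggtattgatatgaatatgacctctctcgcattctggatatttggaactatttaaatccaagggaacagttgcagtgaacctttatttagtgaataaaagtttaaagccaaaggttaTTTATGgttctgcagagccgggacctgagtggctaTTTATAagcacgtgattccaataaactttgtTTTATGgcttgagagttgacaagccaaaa
Hoxb8 promoter: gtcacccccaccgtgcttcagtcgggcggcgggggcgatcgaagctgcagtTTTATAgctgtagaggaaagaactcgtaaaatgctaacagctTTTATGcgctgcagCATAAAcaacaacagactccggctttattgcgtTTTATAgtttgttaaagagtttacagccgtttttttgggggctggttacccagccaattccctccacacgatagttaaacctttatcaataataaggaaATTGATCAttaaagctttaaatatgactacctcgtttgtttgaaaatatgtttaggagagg

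Levels are RPKM, reads per kilobase of transcript scaled to the read total of the library, as made by the authors. The spacing of low values implied 15800000 to 18000000 reads in the knockout libraries and 16200000 to 16300000 reads in the wildtype libraries, so 1 read on a transcript of 2 kb was worth 0.0277 to 0.0317 RPKM. Ucp1, the targeted gene, was at 372 to 389 RPKM in knockout libraries, against 1714 to 3151 RPKM in wildtype libraries. Markers of brown fat cells were abundant in both groups, with Cidea at means of 1317 RPKM in knockouts and 1394 RPKM in wildtypes. Of the 13 brown fat markers tested, 1 rose, Elovl3, and 2 fell, Ucp1 and Prdm16, where 7.00% of all genes tested rose and 0.745% fell. All 20 skeletal muscle markers rose, and their summed level was 2168, 2124 and 1889 RPKM in knockout libraries, against 274, 312 and 67.4 RPKM in wildtype libraries. Several of these markers had wildtype means under 1 RPKM, from 0.406 to 0.740 RPKM. They entered the test only through their knockout means. Pax7, the marker of muscle satellite cells, was listed at 0 in every library. Myf5, another gene of muscle precursors, was at 0.180 and 0.0304 RPKM in knockout replicates 1 and 2 and at 0 elsewhere. Both are named outside the rule given below. At this depth a value of 0 does not show that such cells were absent.

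In both genotypes the Hox RNA of this depot lay mostly in paralogues 3 to 6. Hoxa5, a gene of lung, neck and fat patterning, had the highest level of all Hox genes, with 11.4, 13.3 and 12.8 RPKM in knockout libraries and 15.2, 12.5 and 11.4 RPKM in wildtype libraries. In knockout tissue the means of Hoxc6, Hoxa4, Hoxc4 and Hoxc5 followed at 8.89, 7.65, 5.52 and 5.11 RPKM. In wildtype tissue the means of the same genes were 8.09, 8.90, 5.57 and 6.04 RPKM. The ranges of Hoxc4 and Hoxc5 overlapped within each genotype, and those of Hoxc6 and Hoxa4 overlapped within the wildtype libraries. Summed over the clusters, paralogues 4 and 5 reached 18.5 ± 0.718 and 18.5 ± 0.248 RPKM in knockout libraries and 18.6 ± 1.16 and 19.7 ± 2.50 RPKM in wildtype libraries (SD, n = 3).

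At the posterior end the levels ran out. Paralogue 9 summed to 1.06 ± 0.0496 RPKM in knockout and 0.691 ± 0.232 RPKM in wildtype tissue (SD, n = 3). Paralogues 11 and 12 were listed at 0 in all 6 libraries, and of paralogue 13 a single library, knockout replicate 3, held a value, 0.0422 RPKM for Hoxb13. In all, 10 Hox genes were listed at 0 in every library. They were Hoxb1 and Hoxd1 at the anterior end and Hoxa11, Hoxa13, Hoxc11, Hoxc12, Hoxc13, Hoxd11, Hoxd12 and Hoxd13 at the posterior end. A further 5 had a value in at least 1 library but stayed under 0.1 RPKM in both group means, which is a few reads at most, and 10 lay between 0.1 and 1 RPKM.

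**Figure D1:**
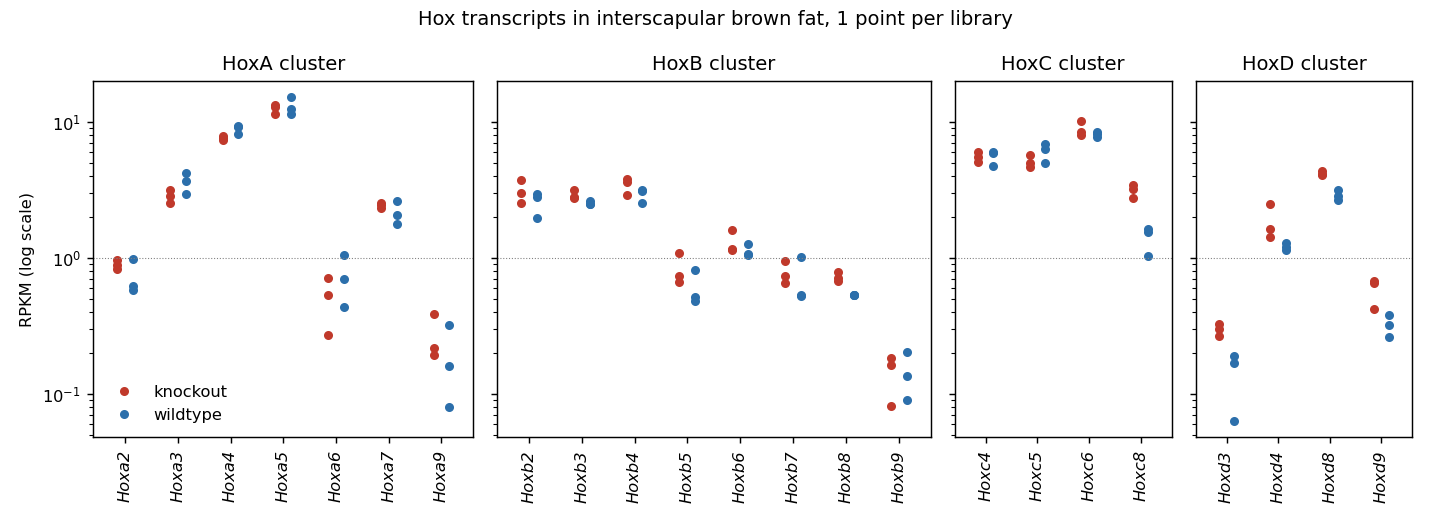
RPKM on a log axis for Hox genes of paralogue 2 and up whose highest group mean reached 0.1 RPKM, by cluster in paralogue order, with 1 point per library, knockout libraries to the left of wildtype libraries. The dotted line marks 1 RPKM, the floor of the test; Hoxa5 is highest, and the knockout points of Hoxc8 and Hoxd8 lie above all wildtype points.

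The remaining 14 Hox genes reached a mean of 1 RPKM in at least one group and were tested with limma on log2(RPKM + 1), with Benjamini-Hochberg adjustment over all 11541 genes tested and a threshold of 0.05. Of these 14, 2 rose, Hoxc8 and Hoxd8, 0 fell and 12 did not pass. At an unadjusted p under 0.05 there were 4. Over all genes tested, 7.75% were called, 7.00% as higher and 0.745% as lower in knockout tissue. The median log2 change was 0.12 over the Hox genes, with 9 positive and 5 negative values. Over all genes it was 0.076, with 7917 positive and 3624 negative values. All Hox genes together summed to 70.8 ± 2.17 RPKM in knockout libraries and 66.8 ± 4.03 RPKM in wildtype libraries (SD, n = 3). These ranges overlapped, and the log2 ratio of 0.08 turned to -0.02 under median-of-ratios scaling.

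Hoxc8, a paralogue of the thoracic level, is known in fat as a gene that separates depots. It stood at 2.77, 3.21 and 3.42 RPKM in knockout libraries and at 1.55, 1.64 and 1.04 RPKM in wildtype libraries. The groups did not overlap, and the lowest knockout library was above the highest wildtype library by more than either group's own range. The means were 3.13 ± 0.332 RPKM in knockout and 1.41 ± 0.324 RPKM in wildtype tissue (SD, n = 3), a ratio of 2.22. The log2 change of RPKM + 1 was 0.78 (SE 0.12, 95% confidence interval 0.51 to 1.06), with an adjusted p of 0.00576 by limma. The table lists 7 transcript rows for Hoxc8, and all 7 were higher in every knockout library. GENCODE shows no exon of another gene over Hoxc8.

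Hoxd8, the HoxD paralogue of the same level, stood at 4.38, 4.18 and 4.09 RPKM in knockout libraries and at 2.66, 3.16 and 2.85 RPKM in wildtype libraries. The groups did not overlap, and the spread within each was small. The means were 4.22 ± 0.151 RPKM in knockout and 2.89 ± 0.249 RPKM in wildtype tissue (SD, n = 3), a ratio of 1.46. The log2 change was 0.43 (SE 0.08, 95% confidence interval 0.24 to 0.61), with an adjusted p of 0.0176 by limma. The values of its longest Ensembl row corresponded to 177, 164 and 176 reads in knockout libraries and 116, 121 and 115 reads in wildtype libraries. All 5 rows of Hoxd8 were higher in every knockout library, and no exon of another gene overlaps it. The call was lost when all genes were rescaled by median-of-ratios factors, with a log2 change of 0.34 and an adjusted p of 0.0591, and when knockout replicate 1, knockout replicate 2 or wildtype replicate 1 was left out, with adjusted p of 0.0791, 0.0686 and 0.0618.

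Skeletal muscle markers moved with both genes between the genotypes. Among the wildtype libraries the order of Hoxc8 was the same as that of muscle. Replicate 3 had the lowest muscle sum, 67.4 RPKM, and the lowest Hoxc8, 1.04 RPKM. Replicate 2 had the highest muscle sum, 312 RPKM, and the highest Hoxc8, 1.64 RPKM. Hoxd8 in wildtype replicate 3, 2.85 RPKM, lay between the other wildtype libraries. Among the knockout libraries the order of Hoxc8 was the reverse of that of muscle: replicate 3 had the lowest muscle sum, 1889 RPKM, and the highest Hoxc8, 3.42 RPKM, and replicate 1 had the highest muscle sum, 2168 RPKM, and the lowest Hoxc8, 2.77 RPKM. Without wildtype replicate 3 the log2 change of Hoxc8 was 0.67, with an adjusted p of 0.00836 by limma. The part of muscle RNA in either result was not tested. In bulk tissue, fewer cells of a type and less RNA per cell cannot be told apart.

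**Figure D2:**
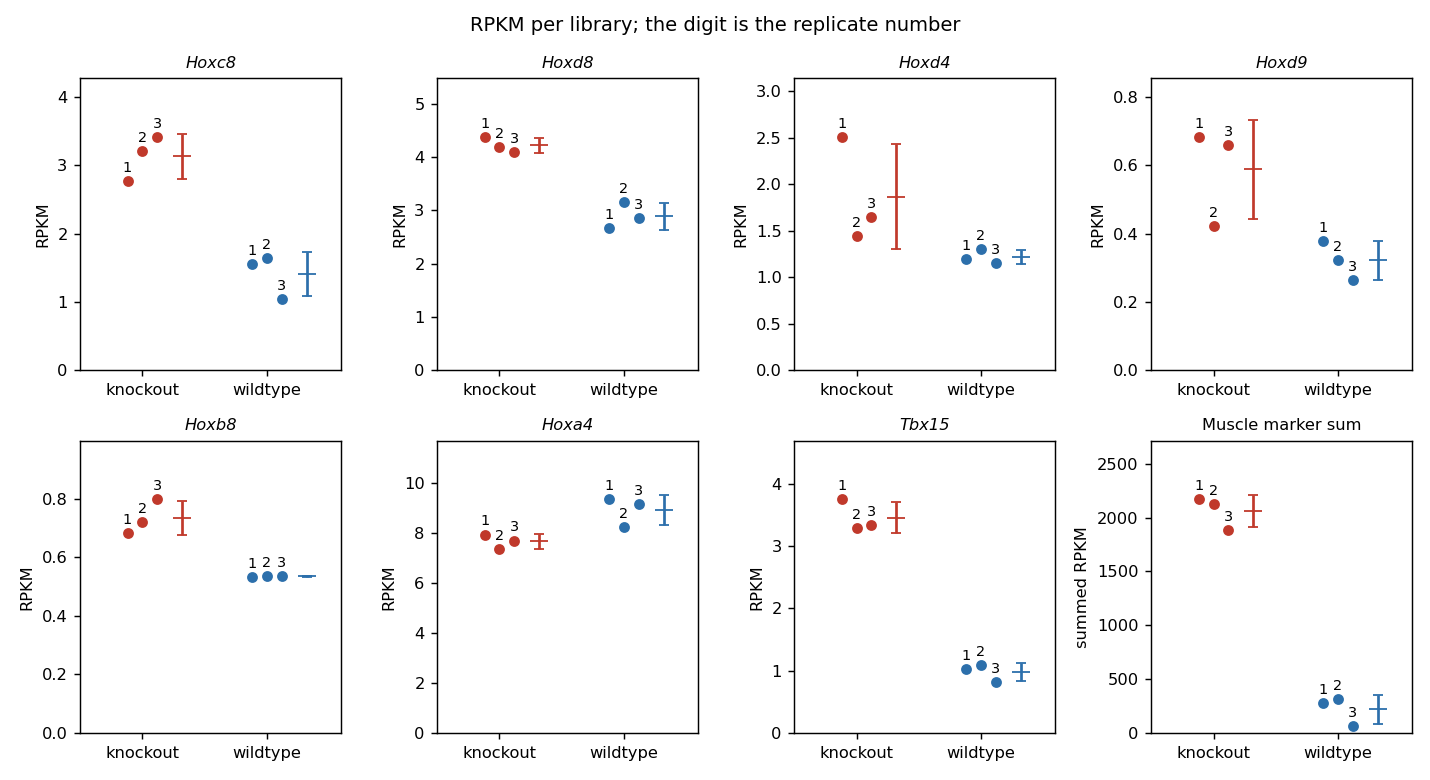
RPKM per library, on axes that start at 0, for 6 Hox genes, Tbx15 and the summed level of 20 skeletal muscle markers, with knockout on the left and wildtype on the right. Digits are replicate numbers, and the bar beside the points is the mean with its SD (n = 3); Hoxc8, Hoxd8, Hoxd4, Hoxd9 and Hoxb8 lie higher in every knockout library and Hoxa4 lies lower.

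Hoxb8 completes paralogue 8, since mice have no Hoxa8. It stood at 0.684, 0.719 and 0.797 RPKM in knockout libraries and at 0.532, 0.536 and 0.535 RPKM in wildtype libraries, below the floor of the test. In the rows used, all 3 members of paralogue 8 were higher in every knockout library, as were 24.3% of all genes tested and 21.2% of all genes between 0.1 and 1 RPKM. Hoxb8 rests on few reads, and its longer Ensembl row, with 7, 9 and 13 reads in knockout libraries and 8, 9 and 8 in wildtype libraries, overlapped between the groups. Of its 5 rows, 2 did not overlap. In a fit with a floor and a pseudocount of 0.1 RPKM its log2 change was 0.39, with an adjusted p of 0.222 by limma.

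Summed over the clusters, paralogue 8 stood at 7.84, 8.11 and 8.30 RPKM in knockout libraries and at 4.75, 5.33 and 4.42 RPKM in wildtype libraries. Its mean was 8.08 ± 0.235 RPKM in knockout and 4.83 ± 0.460 RPKM in wildtype tissue (SD, n = 3), a log2 ratio of 0.74. It made up 11.3%, 11.6% and 11.3% of all Hox RPKM in knockout libraries, against 6.74%, 7.9% and 7.08% in wildtype libraries. Most of this sum came from Hoxc8 and Hoxd8, the genes called above, so it is not a separate result. Paralogues 2 to 7 overlapped between the groups. Paralogue 9 was higher in every knockout library, and paralogue 10 held only a few reads. Of the paralogue 9 genes, Hoxd9 was higher in every knockout library, while Hoxa9, Hoxb9 and Hoxc9 overlapped. All of them lay below the floor of the test.

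**Figure D3:**
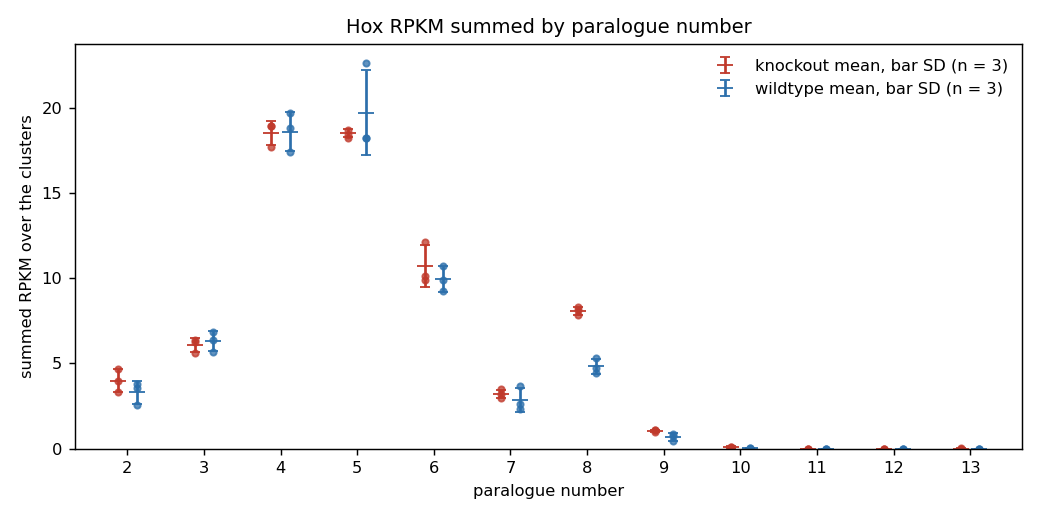
RPKM summed over the clusters for each paralogue number from 2 to 13, with 1 point per library, a dash at the mean and a bar of 1 SD (n = 3), knockout to the left of wildtype. The sums peak at paralogues 4 and 5 and are at or near 0 from paralogue 10 on; at paralogue 8 the knockout libraries lie at 7.84 to 8.30 RPKM and the wildtype libraries at 4.42 to 5.33 RPKM.

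Among the cluster sums, that of HoxD had the largest log2 ratio. It was 7.91, 6.47 and 6.75 RPKM in knockout libraries and 4.30, 4.98 and 4.46 RPKM in wildtype libraries, a log2 ratio of 0.62. HoxD made up 9.22% to 11.4% of all Hox RPKM in knockout libraries and 6.11% to 7.38% in wildtype libraries. Hoxd8, called above, held most of the HoxD sum, with means of 4.22 of 7.05 RPKM in knockout and 2.89 of 4.58 RPKM in wildtype tissue. The HoxB sum was also higher in every knockout library, at 13.0, 13.2 and 13.6 RPKM against 11.5, 12.2 and 9.70 RPKM in wildtype libraries, a log2 ratio of 0.25 that was 0.14 under median-of-ratios scaling and 0.16 without wildtype replicate 3. The sums of HoxA and HoxC overlapped, with log2 ratios of -0.11 and 0.10, the second turning to -0.002 under median-of-ratios scaling.

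Of the 9 HoxD genes, 5 had values above 0, and in the rows used Hoxd3, Hoxd4, Hoxd8 and Hoxd9 were higher in every knockout library. Hoxd10, at levels of a few reads, cannot be placed. Over all genes tested, 5.14% were lower in every knockout library, beside the 24.3% that were higher. Among the 14 tested Hox genes, 4 were higher without overlap, Hoxb3, Hoxc8, Hoxd4 and Hoxd8, and 1 was lower, Hoxa4. For the 4481 genes between 0.1 and 1 RPKM the shares were 21.2% and 4.11%, against 3 higher, Hoxb8, Hoxd3 and Hoxd9, and 0 lower of the 10 Hox genes at this level. Read over all Hox genes, these counts are near the background.

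Hoxd4 stood at 2.51, 1.44 and 1.65 RPKM in knockout libraries and at 1.20, 1.30 and 1.15 RPKM in wildtype libraries. Knockout replicate 1 was far above the other knockout libraries, whose distance to the wildtype libraries was small. The means were 1.86 ± 0.570 and 1.22 ± 0.0751 RPKM in knockout and wildtype tissue (SD, n = 3), and the log2 change of 0.35 (SE 0.14) did not pass, with an adjusted p of 0.168 by limma. Without knockout replicate 1 the log2 change was 0.20. Of its 5 rows, 2 did not overlap.

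Hoxd9 stood at 0.684, 0.422 and 0.660 RPKM in knockout libraries and at 0.379, 0.323 and 0.264 RPKM in wildtype libraries, a ratio of 1.83, with all 4 of its rows higher in every knockout library. Hoxd3 stood at 0.301, 0.328 and 0.268 RPKM in knockout libraries and at 0.0633, 0.170 and 0.191 RPKM in wildtype libraries, a ratio of 2.11. Both groups of Hoxd3 are low, and 3 of its 7 rows did not overlap. In the fit with a floor of 0.1 RPKM, the log2 changes were 0.69 for Hoxd9 and 0.77 for Hoxd3, and neither passed, with adjusted p of 0.14 and 0.171 by limma. Exons of Hoxd3 and Hoxd4 overlap each other, so their reads cannot be fully separated. Hoxd10 was listed at 0.0338, 0.103 and 0.0899 RPKM in knockout libraries and at 0, 0.0333 and 0 RPKM in wildtype libraries, which is about 2 reads or fewer in each. Its lowest knockout and highest wildtype values correspond to the same number of reads, so the groups are not separated at this depth.

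**Figure D4:**
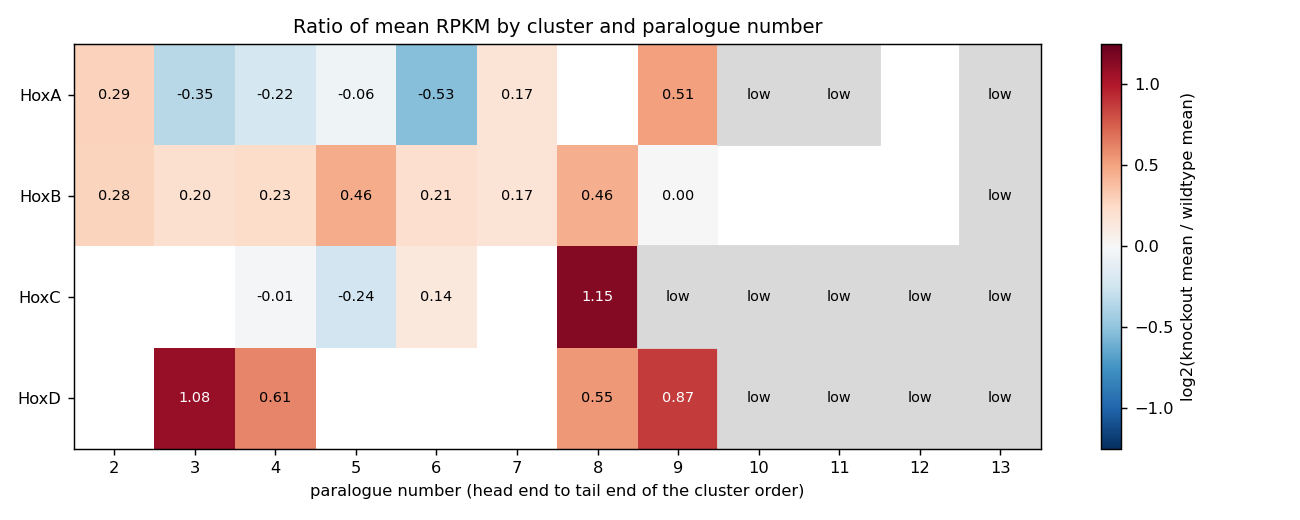
Log2 of the knockout mean over the wildtype mean of RPKM, with no pseudocount, by cluster (rows) and paralogue number from 2 to 13 (columns), red where knockout is higher. Cells marked low had a highest group mean under 0.1 RPKM, and blank cells have no gene. The HoxD genes at 0.1 RPKM or above and the paralogue 8 genes are red. So are Hoxa2, Hoxa7, Hoxa9, Hoxc6 and the HoxB genes from Hoxb2 to Hoxb7, at ratios of means of 1.10 to 1.42. Hoxa3, Hoxa4, Hoxa5, Hoxa6 and Hoxc5 are blue.

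Ratios within a library do not depend on the scaling between libraries. Hoxc8 over Hoxc6, its neighbour in the cluster, was 0.348, 0.379 and 0.334 in knockout libraries and 0.191, 0.194 and 0.134 in wildtype libraries. Hoxd8 over Hoxa5 was 0.383, 0.314 and 0.320 in knockout libraries and 0.175, 0.253 and 0.249 in wildtype libraries. Neither ratio overlapped between the groups. Both set a gene called above over a gene without a called change, so they are not a separate result. Hoxc8 over Hoxd8 was 0.631, 0.767 and 0.836 in knockout libraries and 0.582, 0.519 and 0.364 in wildtype libraries, also without overlap. That ratio is made of the 2 called genes, so it is not a separate result either. Hoxd8 over Hoxd4 averaged 2.38 ± 0.591 in knockout and 2.38 ± 0.130 in wildtype libraries (SD, n = 3), with overlap.

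Hoxa4, an anterior gene of HoxA, was the one tested Hox gene lower in every knockout library. It stood at 7.93, 7.34 and 7.69 RPKM in knockout libraries and at 9.33, 8.22 and 9.14 RPKM in wildtype libraries. Both of its rows hold identical values, and the groups were separated by a small step. The means were 7.65 ± 0.295 and 8.90 ± 0.593 RPKM in knockout and wildtype tissue (SD, n = 3), and the log2 change of -0.19 (SE 0.08) did not pass, with an adjusted p of 0.177 by limma. An antisense gene overlaps Hoxa4, and no source used here says whether strand was used in the counting.

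Its neighbours and the anterior genes of HoxC showed no called change. Hoxa3 stood at 2.55, 2.87 and 3.14 RPKM in knockout libraries and at 3.68, 4.19 and 2.98 RPKM in wildtype libraries, with a log2 change of -0.25 and an adjusted p of 0.224 by limma. Hoxa5 had a log2 change of -0.05 (95% confidence interval -0.30 to 0.20), and its sign depended on the library left out. Hoxc5 stood at 5.72, 4.67 and 4.96 RPKM in knockout libraries and at 6.86, 4.96 and 6.31 RPKM in wildtype libraries, with a log2 change of -0.20 and an adjusted p of 0.347 by limma. Hoxc4, between Hoxc5 and the anterior end of its cluster, had a log2 change of -0.005 (95% confidence interval -0.24 to 0.23), and its sign also depended on the library left out.

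In HoxB, the 4 tested members had positive log2 changes, as had 7917 of all 11541 genes tested, and 0 passed. Hoxb3, which was higher in every knockout library in 3 of its 6 rows, stood at 2.77, 3.17 and 2.83 RPKM in knockout libraries and at 2.62, 2.49 and 2.51 RPKM in wildtype libraries, with an adjusted p of 0.314 by limma. Hoxb2, Hoxb4 and Hoxb6 had log2 changes of 0.20, 0.17 and 0.11, and their groups overlapped. Exons of Hoxb2 and Hoxb3 overlap an antisense gene. Of the middle paralogues elsewhere, Hoxa7 averaged 2.44 ± 0.103 RPKM in knockout and 2.17 ± 0.439 RPKM in wildtype tissue (SD, n = 3), and Hoxc6 averaged 8.89 ± 1.20 RPKM in knockout and 8.09 ± 0.354 RPKM in wildtype tissue (SD, n = 3), both with overlap.

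The low Hox genes without a difference in range included Hoxa2, Hoxa6, Hoxa9, Hoxb5, Hoxb7 and Hoxb9. The means of these ran from 0.144 RPKM for Hoxb9 to 0.895 RPKM for Hoxa2 in knockout libraries, and from 0.144 RPKM for Hoxb9 to 0.733 RPKM for Hoxa6 in wildtype libraries. Hoxc9, Hoxa10 and Hoxc10 held 0.111 RPKM at most in any library. Hoxc9 and Hoxc10 are known as markers of inguinal and other posterior fat.

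Of the genes known to work with Hox proteins, the cofactor list had 9 members, 6 of them tested, and 0 were called, with a median log2 change of -0.01. Pbx2, the most abundant, averaged 9.88 and 9.96 RPKM in knockout and wildtype tissue. Pknox1, a partner of Pbx proteins, came nearest, at 2.47, 2.42 and 2.67 RPKM in knockout libraries and at 3.12, 3.06 and 3.40 RPKM in wildtype libraries, with a log2 change of -0.25 and an adjusted p of 0.105 by limma. Meis1, Meis2 and Pbx3 had log2 changes of -0.02, 0.02 and -0.01.

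Below the floor, Pknox2 stood at 0.436, 0.387 and 0.598 RPKM in knockout libraries and at 0.125, 0.0717 and 0.0896 RPKM in wildtype libraries, a ratio of 4.97. Meis3 stood at 0.771, 1.35 and 0.747 RPKM in knockout libraries and at 0.653, 0.346 and 0.587 RPKM in wildtype libraries. Both were higher in every knockout library, as were 21.2% of all genes between 0.1 and 1 RPKM, and neither was tested. Pbx4 averaged 0.218 and 0.167 RPKM in knockout and wildtype tissue, with overlap.

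Of 20 tested Polycomb genes, 1 rose and 0 fell, a share below the 7.00% of all genes tested that rose, and the median log2 change was 0.11, against 0.076 over all genes. The gene that rose was Ezh2, the methyltransferase that writes the silencing mark on Hox clusters, at 2.38, 2.53 and 2.78 RPKM in knockout libraries and at 1.45, 1.74 and 1.93 RPKM in wildtype libraries. Its log2 change was 0.40 (SE 0.10), with an adjusted p of 0.0453 by limma, and the call held in 3 of 15 alternatives. Of 13 tested Trithorax genes 0 were called. Wdr5, a subunit of the activating methyltransferase complexes, had the smallest p, with means of 9.12 ± 0.185 RPKM in knockouts and 7.65 ± 0.320 RPKM in wildtypes (SD, n = 3), with an adjusted p of 0.095 by limma. Of 8 tested genes of retinoic acid signalling and other Hox inducers 0 were called, Rxrg being nearest with an adjusted p of 0.192 by limma.

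**Figure D5:**
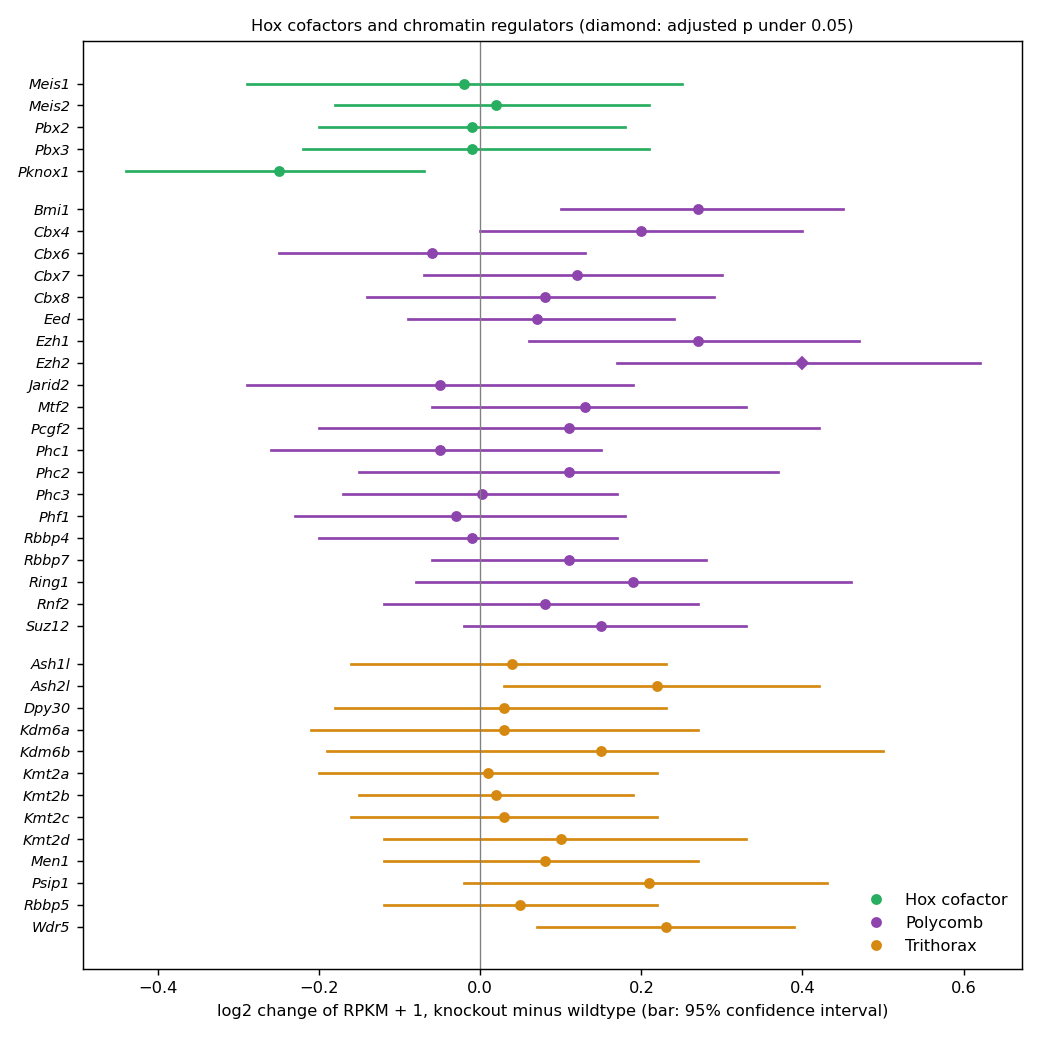
Log2 change of RPKM + 1, knockout minus wildtype, with its 95% confidence interval, for tested Hox cofactors, Polycomb and Trithorax genes. Diamonds mark an adjusted p under 0.05, which Ezh2 reached, at 0.40; Pknox1 lies lowest, at -0.25.

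Within the clusters themselves, 7 of 24 listed noncoding symbols had a row, and Hotair, Hoxa11os, Gm53 and 5730457N03Rik were listed at 0 in every library. Mira, the one tested, averaged 6.77 ± 0.256 RPKM in knockout and 5.93 ± 1.63 RPKM in wildtype libraries (SD, n = 3), with an adjusted p of 0.48 by limma. The rows 0610040B09Rik and 2700086A05Rik averaged 0.631 and 0.240 RPKM in knockout and 0.649 and 0.123 RPKM in wildtype tissue. Among the genes that flank the clusters, 0 of 12 tested were called. Lnp, beside HoxD, had the smallest p, at 1.29, 1.20 and 1.19 RPKM in knockout libraries and at 0.803, 0.957 and 0.991 RPKM in wildtype libraries, with an adjusted p of 0.195 by limma. Its wildtype mean, 0.917 RPKM, was under the floor, so it entered the test through its knockout mean.

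Other genes that mark where a fat depot lies, most of them transcription factors, were set beside the Hox genes. Of 12 tested, 2 rose and 0 fell, where 7.00% of all genes tested rose and 0.745% fell. The median log2 change was 0.08, against 0.076 over all genes. Tbx15, a T-box factor that is high in some fat depots and in glycolytic muscle, stood at 3.75, 3.29 and 3.34 RPKM in knockout libraries and at 1.03, 1.09 and 0.810 RPKM in wildtype libraries. Its log2 change was 1.18 (SE 0.09), with an adjusted p of 0.000456 by limma. The wildtype mean of Tbx15, 0.976 RPKM, was under the floor, so it entered the test through its knockout mean. Prrx1, a homeobox gene of mesenchymal precursors, stood at 3.43, 3.73 and 3.05 RPKM in knockout libraries and at 1.36, 1.89 and 1.32 RPKM in wildtype libraries, with a log2 change of 0.81 (SE 0.11) and an adjusted p of 0.00344 by limma. Neither overlapped between the groups, and both ratios, 3.54 and 2.23, were at least as large as that of Hoxc8. The muscle marker sum given above also differed between the genotypes, and its part in these results was not tested.

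Of the 8 members of this list between 0.1 and 1 RPKM, 5 were higher and 0 lower in every knockout library, where 21.2% of all genes at that level were higher. Irx5, named after its values were seen, stood at 0.753, 0.976 and 0.715 RPKM in knockout libraries and at 0.178, 0.359 and 0.358 RPKM in wildtype libraries. Shox2 and En1, chosen in the same way, had ratios of 2.08 and 1.82. These low genes were not tested.

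Markers of other cells in the depot were called in part, where 7.00% of all genes tested rose and 0.745% fell. The fibroblast and preadipocyte list, summed, ran from 276 to 322 RPKM in knockout libraries and from 218 to 283 RPKM in wildtype libraries, with 2 of 11 risen, Thy1 and Col3a1. The macrophage sum ran from 64.5 to 85.4 RPKM in knockout libraries and from 40.7 to 61.5 RPKM in wildtype libraries, with 1 of 9 risen, Mpeg1. The white adipocyte sum overlapped, at 398 to 517 RPKM in knockout libraries against 309 to 540 RPKM in wildtype libraries, with 2 of 7 risen, Psat1 and Agt. Agt, with a wildtype mean of 0.546 RPKM, entered the test through its knockout mean. Of the endothelial markers 0 of 10 were called, of the Schwann cell markers 0 of 5, and of the smooth muscle markers 1 of 9, Des, which skeletal muscle also makes. The 8 lymphocyte markers all stayed under the floor, and their sum ran from 1.71 to 2.84 RPKM in knockout libraries and from 1.20 to 1.49 RPKM in wildtype libraries. The part of any of these cells in the Hox values was not tested.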

How the data were processed

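Libraries were made from total RNA with a TruSeq kit, per the labels' protocols. CASAVA and bcl2fastq are the tools in the submitters' processing notes. For the aligner, genome build and use of strand the sources say nothing. The authors deposited RPKM in 168326 transcript rows; 13.7% of distinct rows name no gene and were left out. No header names the unit, which was read from the spacing of low values: 96.1% to 96.3% were whole reads within 0.1. Each gene is represented by its RefSeq row with the highest mean, or another row where it has none.

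The table holds no counts. Genes whose mean reached 1 RPKM in a group were tested on log2(RPKM + 1) by limma 3.58.1 (R 4.3.3, eBayes with trend), with genotype as factor; the script was checked on simulated data. A log2 change understates that of low genes. P-values are two-sided and adjusted by Benjamini-Hochberg. Every Hox gene could be named. From each list, up to 3 called genes with the smallest adjusted p or the 1 nearest to a call, and cofactors and cluster noncoding genes, could be named too. A Hox gene and a cofactor are counted in the totals but not reported here. Members and lists were chosen with earlier results of these data known. Alternatives changed scaling, pseudocount, floor, row choice, model and replicates.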

Additional observations from a re-analysis of the deposited data

How the results depend on the processing

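Hoxc8 kept its call in all 15 alternatives, with log2 changes of 0.67 to 1.14 and adjusted p of 0.0044 to 0.0347 by limma. Hoxd8 kept it in 11 of 15, with log2 changes of 0.34 to 0.53 and adjusted p of 0.0156 to 0.0791. The number of Hox genes called was 1 under median-of-ratios scaling and 1 to 2 with a replicate left out, against 2. That scaling took the median log2 change of all genes to -0.020 from 0.076, and called 470 genes higher and 178 lower, against 808 and 86. All genes called numbered 894, against 515 with limma-voom on recovered reads, an alternative chosen after seeing the data, and 457 to 850 with a replicate left out; the lowest were 477 without knockout replicate 1 and 457 without knockout replicate 2. Fewer samples enter these fits.

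With a replicate left out, the log2 change ran from -0.13 to 0.06 for Hoxa5 and from -0.10 to 0.05 for Hoxc4. It was positive for Hoxa5 without knockout replicate 1 (0.01) or wildtype replicate 1 (0.06), and for Hoxc4 without knockout replicate 2 (0.04), wildtype replicate 1 (0.04) or wildtype replicate 3 (0.05). Median-of-ratios scaling gave log2 ratios of summed RPKM of -0.22 for HoxA, -0.002 for HoxC, -0.12 for paralogue 4, 0.63 for paralogue 8 and -0.02 for all Hox genes. Summing all rows of a gene gave 0.26 for HoxC, 0.07 for paralogue 4 and 0.18 for all Hox genes. The cause was not tested.

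Same-numbered libraries did not visibly deviate together, with correlations of 0.09, 0.04 and -0.02. These values show no pairing by number, but with 3 libraries per group they cannot exclude one. With the replicate number as a block, 778 genes and 2 Hox genes were called, with adjusted p of 0.0142 for Hoxc8 and 0.0424 for Hoxd8. Depth limits the Hox genes below 1 RPKM, which rest on few reads.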
